A study of Mus musculus with 6 samples.

Results

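The genes that make GABA and glutamate available for release were followed through Drop-seq libraries of mouse hypothalamus. They were chosen by name: Gad1 and Gad2, the 2 glutamate decarboxylases that make GABA, Slc32a1, the vesicular GABA transporter, and Slc17a6, Slc17a7 and Slc17a8, the vesicular glutamate transporters VGLUT2, VGLUT1 and VGLUT3. All 6 were in the deposited table, of 18204 genes in all. The libraries came from hypothalamus of C57BL/6J mice aged 8 weeks, 3 from IDOL knockout (KO1, KO2 and KO3) and 3 from wild type (WT1, WT2 and WT3). IDOL, encoded by Mylip, is a ubiquitin ligase that directs lipoprotein receptors to degradation. Neither the way the knockout was made, nor whether it was restricted to a cell type, nor whether each library was a separate animal is given in the sources used here, so p-values measure only the spread between libraries. Library preparation was spread over 2 days with the groups mixed, and the day of each library is not given in the sources used here, so day could not be tested.

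Of 13994 deposited barcodes, 9329 were kept (1466, 1869 and 1944 in KO1 to KO3, and 1874, 1028 and 1148 in WT1 to WT3), and libraries held 1670993 to 4068886 unique molecular identifiers (UMIs) before filtering. No kept barcode occurred in more than 1 library. In kept cells Mylip had 2, 0 and 0 UMIs in KO1 to KO3, against 68, 27 and 43 in WT1 to WT3. Clusters named from neuron markers held 3122 cells, with 545, 660 and 460 in KO1 to KO3 and 818, 335 and 304 in WT1 to WT3. Their median depth was 1759, 1255.5 and 1060.5 UMIs in the KO libraries and 1606, 1409 and 1198.5 in the WT libraries. Neurons of KO1 stood apart in pituitary hormone markers, whose summed level was 371.6 UMIs in every 1000000 (CPM) there, against 7.38 to 23.5 CPM in the other 5 libraries.

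GABA is made from glutamate in a single step by the enzymes of Gad1 and Gad2, and Slc32a1 loads it into synaptic vesicles. Glutamate is present in every cell as a metabolite, so a neuron is called glutamatergic by a vesicular transporter rather than by a synthetic enzyme. In the hypothalamus Slc17a6 is the usual vesicular glutamate transporter, while Slc17a7 is typical of cortex and hippocampus and Slc17a8 of scattered cells that often release another transmitter. The enzyme of Gad1 is spread through the cell and that of Gad2 is concentrated at terminals. Hypothalamic peptide neurons release GABA or glutamate beside their peptide, and the hypothalamus holds large populations of each kind.

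The promoters of Gad1, Gad2, Slc32a1 and Slc17a6 are shown because the results turn on these 4 genes. Each is the 300 bases from 250 before to 50 after a RefSeq start on GRCm38.p6, on the gene's own strand, with CG dinucleotides in capitals except for Slc32a1. In Slc32a1 the capitals mark the stretch between the start of Gm14204, a noncoding gene on the opposite strand, and the start of Slc32a1 in GENCODE. The windows are chr2:70561879-70562178 for Gad1, chr2:22622077-22622376 for Gad2, chr2:158610508-158610807 for Slc32a1, and chr7:51621580-51621879 and chr7:51624387-51624686 for the 2 starts of Slc17a6, all on the plus strand.
Gad1: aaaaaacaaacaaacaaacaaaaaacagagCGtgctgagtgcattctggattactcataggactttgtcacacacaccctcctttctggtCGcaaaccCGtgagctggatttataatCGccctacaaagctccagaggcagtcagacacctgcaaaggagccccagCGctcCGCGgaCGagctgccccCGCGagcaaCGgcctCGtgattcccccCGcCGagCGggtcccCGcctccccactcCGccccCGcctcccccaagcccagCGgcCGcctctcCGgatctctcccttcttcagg
Gad2: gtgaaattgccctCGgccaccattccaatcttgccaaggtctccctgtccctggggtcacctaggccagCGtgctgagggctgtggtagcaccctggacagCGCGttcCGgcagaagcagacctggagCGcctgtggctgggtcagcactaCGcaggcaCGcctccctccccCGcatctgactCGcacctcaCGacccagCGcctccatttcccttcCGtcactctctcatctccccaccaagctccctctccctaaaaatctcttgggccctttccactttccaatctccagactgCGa
Slc32a1: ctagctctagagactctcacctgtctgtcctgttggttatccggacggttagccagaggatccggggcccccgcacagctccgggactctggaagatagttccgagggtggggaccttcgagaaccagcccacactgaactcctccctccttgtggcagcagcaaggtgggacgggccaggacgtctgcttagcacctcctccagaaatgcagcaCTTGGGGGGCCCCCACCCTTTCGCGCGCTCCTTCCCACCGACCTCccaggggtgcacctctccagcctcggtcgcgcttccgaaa
Slc17a6, first start: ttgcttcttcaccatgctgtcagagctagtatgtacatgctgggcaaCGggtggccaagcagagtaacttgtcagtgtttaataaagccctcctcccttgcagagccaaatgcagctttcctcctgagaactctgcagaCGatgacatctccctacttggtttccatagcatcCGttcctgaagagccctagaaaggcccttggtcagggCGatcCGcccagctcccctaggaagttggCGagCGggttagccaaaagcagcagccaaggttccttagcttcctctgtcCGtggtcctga
Slc17a6, second start: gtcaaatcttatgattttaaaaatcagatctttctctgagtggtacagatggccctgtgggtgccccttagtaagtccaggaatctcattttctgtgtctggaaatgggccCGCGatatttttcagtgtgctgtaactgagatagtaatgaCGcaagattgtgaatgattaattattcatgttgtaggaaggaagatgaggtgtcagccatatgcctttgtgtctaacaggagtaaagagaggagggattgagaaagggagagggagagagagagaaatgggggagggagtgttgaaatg
The GABA gene windows held 21 CG dinucleotides in Gad1, 14 in Gad2 and 17 in Slc32a1. The Slc17a6 windows held 8 and 3. Of the members not shown, the Slc17a7 window held 13 and those of Slc17a8 held 6 and 7. Over 32851 RefSeq promoter windows of the same length the median was 7 and the quartiles were 3 and 20. All 3 GABA genes thus lay above the median, as did Slc17a7 and the first Slc17a6 window, and only Gad1 lay above the upper quartile. The homeodomain core TAATTA, which reads the same on both strands, was found once in the windows shown, in the second Slc17a6 window at position -81 from its start, and 5.29% of all windows held it. Of the members not shown, Slc17a8 held it at position -141 in 1 of its 2 windows. The E-box CAGCTG, also the same on both strands, was in none of these windows and in 16.3% of all windows. These matches describe letters only.

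Gad1 lies at chr2:70553072-70602014 on the plus strand, Gad2 at chr2:22622205-22693874 on the plus strand and Slc32a1 at chr2:158610767-158615748 on the plus strand (GENCODE M21, GRCm38). Slc17a6 lies at chr7:51622006-51671119 on the plus strand, Slc17a7 at chr7:45163949-45176142 on the plus strand and Slc17a8 at chr10:89574020-89621253 on the minus strand. Drop-seq reads the 3' end of a transcript, and UMIs were not divided by length. Antisense genes overlap Gad1 (Gad1os) and Slc32a1 (Gm14205). The strand counted is not given in the sources used here, so reads of these genes and of their antisense partners cannot be told apart.

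In kept cells there were 4107 UMIs of Gad2, 1936 of Gad1, 1081 of Slc32a1 and 1707 of Slc17a6, but 99 of Slc17a8 and 8 of Slc17a7. Neurons held 94.0% of the Gad1 UMIs, 97.7% of Gad2, 96.4% of Slc32a1 and 96.5% of Slc17a6. Slc17a8 was different: 32.3% of its UMIs were in neurons and 55.6% in the clusters named from markers of tanycytes, glia-like cells that line the third ventricle, where the cells that carried it had more ependymal than tanycyte marker RNA. All 8 UMIs of Slc17a7 came from neurons of KO2. Pooled over libraries, neurons held 579 CPM of Gad2, 262 of Gad1, 150 of Slc32a1, 238 of Slc17a6, 4.62 of Slc17a8 and 1.15 of Slc17a7. In all other cells the levels were 11.8 CPM for Gad2, 14.7 for Gad1, 4.89 for Slc32a1, 7.40 for Slc17a6 and 8.40 for Slc17a8.

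The comparison of genotypes asked whether loss of IDOL altered these genes, and no member differed between KO and WT beyond the spread of the libraries in the 4 populations fitted (all cells, neurons, and GABAergic and glutamatergic clusters). In neurons Gad1 was at 289, 332 and 195 CPM in KO1 to KO3, against 238, 306 and 208 CPM in WT1 to WT3. Gad2 was at 725, 699 and 419 CPM in KO1 to KO3, against 429, 685 and 654 CPM in WT1 to WT3. The lowest Gad2 levels were in 1 library of each genotype, KO3 and WT1, and the groups overlapped for both enzymes. Slc32a1 was at 171, 153 and 190 CPM in KO1 to KO3, against 105, 145 and 195 CPM in WT1 to WT3. Slc17a6 was at 248, 209 and 235 CPM in KO1 to KO3, against 263, 202 and 231 CPM in WT1 to WT3. Both transporters overlapped between groups, and Slc17a6 was the steadiest of the 4 genes across libraries. Slc17a8 was at 3.03, 12.3 and 1.07 CPM in KO1 to KO3, against 1.43, 10.1 and 2.99 CPM in WT1 to WT3. Its highest levels were in KO2 and WT2, and its UMIs in neurons were too few for a fit.

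The group means in neurons were 272 ± 69.8 CPM in KO and 251 ± 50.5 in WT for Gad1 (SD, n = 3 each), and 614 ± 170 in KO and 590 ± 140 in WT for Gad2. They were 172 ± 18.4 in KO and 148 ± 44.7 in WT for Slc32a1, and 231 ± 19.8 in KO and 232 ± 30.3 in WT for Slc17a6. The edgeR quasi-likelihood fit across 9818 genes gave log2 fold changes, KO over WT, of 0.14 ± 0.19 for Gad1 (SE, adjusted p = 0.989) and 0.08 ± 0.21 for Gad2 (adjusted p = 0.992). The same edgeR fit gave 0.25 ± 0.20 for Slc32a1 (adjusted p = 0.987) and -0.01 ± 0.16 for Slc17a6 (adjusted p = 0.998). The direction of the Gad1, Gad2 and Slc17a6 values turned with the library left out. Of the 4 members tested in neurons 0 were called by edgeR and 0 by DESeq2, and 0 had an unadjusted p under 0.05 in either tool. Among all genes 0.0306% were called by edgeR, and 0 members, against 9.73% of all genes, had library levels that did not overlap between genotypes.

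**Figure D1:**
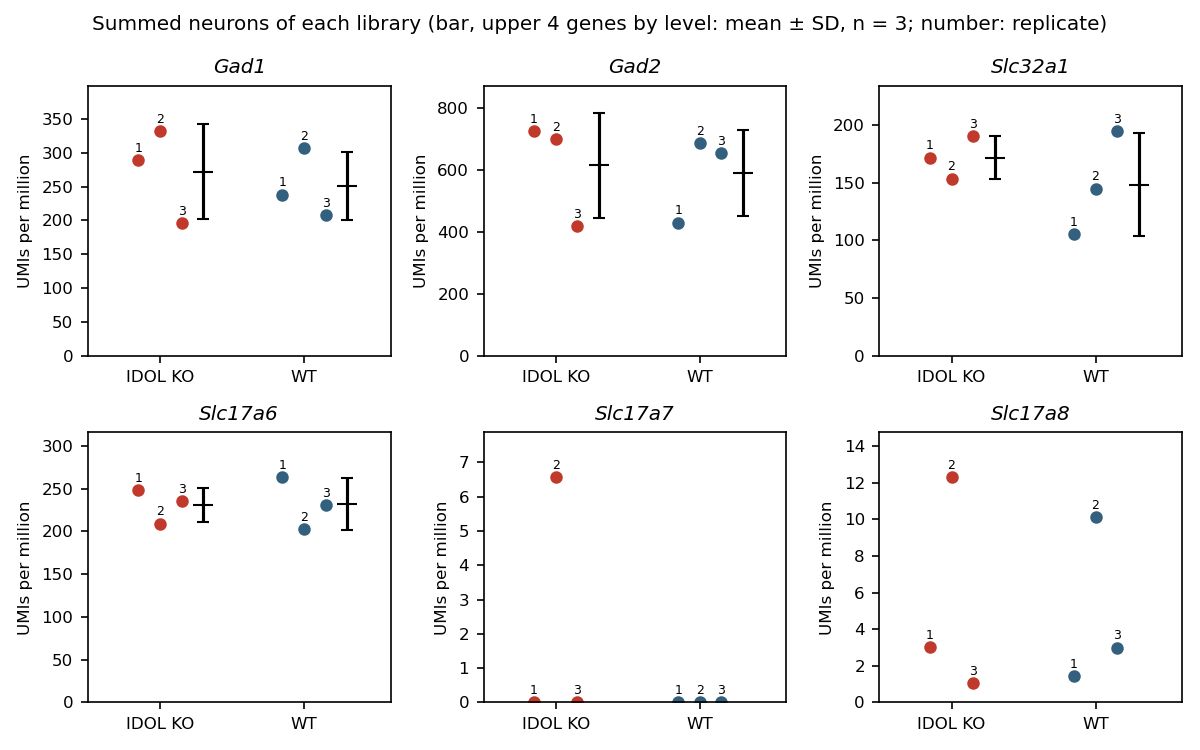
Levels of the 6 genes in neurons of each library, in CPM, with KO libraries left of WT libraries, with the mean as a horizontal tick and the SD as error bars (n = 3) for Gad1, Gad2, Slc32a1 and Slc17a6. KO and WT points overlap in each panel, and Slc17a7 has a value above 0 only in KO2.

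Over all kept cells, where a change in the number of neurons and a change in RNA per neuron cannot be told apart, 5 members entered the fit. Their edgeR log2 fold changes, KO over WT, were 0.12 ± 0.30 for Gad1, 0.07 ± 0.31 for Gad2, 0.21 ± 0.19 for Slc32a1, -0.12 ± 0.25 for Slc17a6 and -0.77 ± 0.55 for Slc17a8 (SE, n = 3 libraries each, adjusted p of 1 for Slc17a8). edgeR and DESeq2 called 0 of the 5, with 0 under an unadjusted p of 0.05, beside 0% of all genes called and 7.52% with groups that did not overlap. Slc17a8 averaged 4.69 CPM in KO and 7.78 CPM in WT, and its fold change was -0.31 without WT1, -0.42 without KO1 and -1.46 without KO2.

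The same held within neurons grouped by transmitter. Neuron clusters were formed without the 6 genes and then called GABAergic where UMIs of the GABA genes were at least 4 times those of the glutamate transporters, which gave 2136 neurons. In these, Gad1 averaged 352 ± 79.2 CPM in KO and 333 ± 59.5 in WT (SD, n = 3 each). Gad2 averaged 785 CPM in KO and 762 in WT, Slc32a1 averaged 214 CPM in KO and 185 in WT, and Slc17a6 averaged 129 CPM in KO and 125 in WT. The edgeR log2 fold changes, KO over WT, were 0.08 ± 0.19 for Gad1, 0.05 ± 0.19 for Gad2, 0.22 ± 0.19 for Slc32a1 and 0.09 ± 0.21 for Slc17a6. The Slc17a6 value was 0.53 with cells of at least 500 genes and 0.57 with the 6 genes kept in the clustering. In the 516 neurons of clusters where the glutamate transporters had at least as many UMIs as the GABA genes, Slc17a6 averaged 567 ± 125 CPM in KO and 546 ± 112 in WT, with an edgeR log2 fold change of 0.05 ± 0.21. Gad2 averaged 98.7 CPM in KO and 89.9 CPM in WT in these clusters, with an edgeR log2 fold change of 0.20 ± 0.33. edgeR and DESeq2 called 0 of 4 members in GABAergic and 0 of 2 in glutamatergic clusters, and 0 had an unadjusted p under 0.05. The edgeR background was 0.0451% of all genes called in GABAergic and 0.0422% in glutamatergic clusters. No member's groups failed to overlap in either, beside 10.1% and 11.5% of all genes.

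The levels differed far more between kinds of neuron than between genotypes. Since the clusters were built from the same cells, these levels are a description with no test, and each interval below covers counting error only. Gad2 was highest in N1, a cluster led by Trh and Dlx1, at 1029 CPM, and in N5, led by Sst and Pthlh, at 1017 CPM. N13, led by Ghrh, Gal and Th, followed at 977 CPM and N12, led by Vip and Lhx1, at 868 CPM, and the exact 95% Poisson intervals of these neighbours overlapped. Slc32a1 was highest in N5, at 366 CPM, and in N12, at 318 CPM. In the largest cluster with almost no glutamate transporter, N4, led by Rora and Nnat, Gad1 was at 503 CPM, Gad2 at 665 CPM, Slc32a1 at 236 CPM and Slc17a6 at 5.54 CPM. In N6, led by Npy and Agrp, the peptides of the hunger neurons, Gad1 was at 243 CPM, Gad2 at 484 CPM, Slc32a1 at 137 CPM and Slc17a6 at 5.07 CPM.

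Slc17a6 was highest in N9, led by Foxb1 and Rprm, genes of the mammillary region, at 1091 CPM (exact 95% Poisson interval 966 to 1228). It was at 735 CPM in N7, led by Pmch and Gda, at 673 CPM in N14, led by Tac1 and Crhbp, and at 602 CPM in N11, led by Tac2, and the intervals of these 3 overlapped. N17, described below, had 637 CPM from 9 UMIs. In N9 Slc17a6 was at 1114, 971 and 756 CPM in KO1 to KO3, against 1188, 1404 and 1314 CPM in WT1 to WT3. The groups did not overlap there, with every KO library below every WT library (two-sided exact permutation p = 0.1, the smallest that 3 against 3 libraries allow), and the 14 UMIs of WT2 came from 6 neurons. Among the genes of N9 with at least 50 CPM, 9.33% had groups that did not overlap. Of 64 pairs of a cluster and Gad1, Gad2, Slc32a1 or Slc17a6, in the 16 clusters with cells in every library, 3 did not overlap: Slc17a6 in N9, and Gad2 in N14 and N16. Among all genes with at least 50 CPM, the share that did not overlap was 13.5% in N14 and 11.9% in N16. Over the 16 clusters it ran from 7.21% to 13.5%. N14 held only 4, 2 and 5 neurons in KO1 to KO3. The lowest N9 library lay within the range of N7. On the GABA side N13, N16 and N18 held no UMI of a glutamate transporter. N9 held 7.96 CPM of Gad1, 0 of Gad2 and 3.98 of Slc32a1, the clearest separation of the programs among N7, N9, N11 and N14. N7 did not show such a separation: beside Slc17a6 it held 279 CPM of Gad2, 46.1 of Gad1 and 56.4 of Slc32a1. These came from part of the cluster, with a GABA UMI in 37 of its 130 neurons and Slc32a1 in 8. Only 5 neurons over all clusters had at least 5 UMIs of Pmch, so N7 is labelled by a leading gene and is not a set of Pmch neurons. In N10, led by the magnocellular hormones Oxt and Avp, Slc17a6 was at 209 CPM, Gad1 at 2.01 and Gad2 at 22.1, and Slc32a1 was not detected.

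Slc17a7 was found in 6 UMIs, or 185 CPM, in N19, a cluster of 19 neurons led by Crym, Lmo4 and Nrgn that all came from KO2 and had no UMI of the other 5 genes. A similar cluster, N17, led by Ndnf and Reln, had 90.5% of its 21 neurons from KO2. Their part in differences between genotypes was not tested by a separate fit. Left out together with N15, led by glial genes, and N20, led by Gnrh1 and the pituitary gene Cga, they did not alter the program shares below by more than the SD between libraries.

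**Figure D2:**
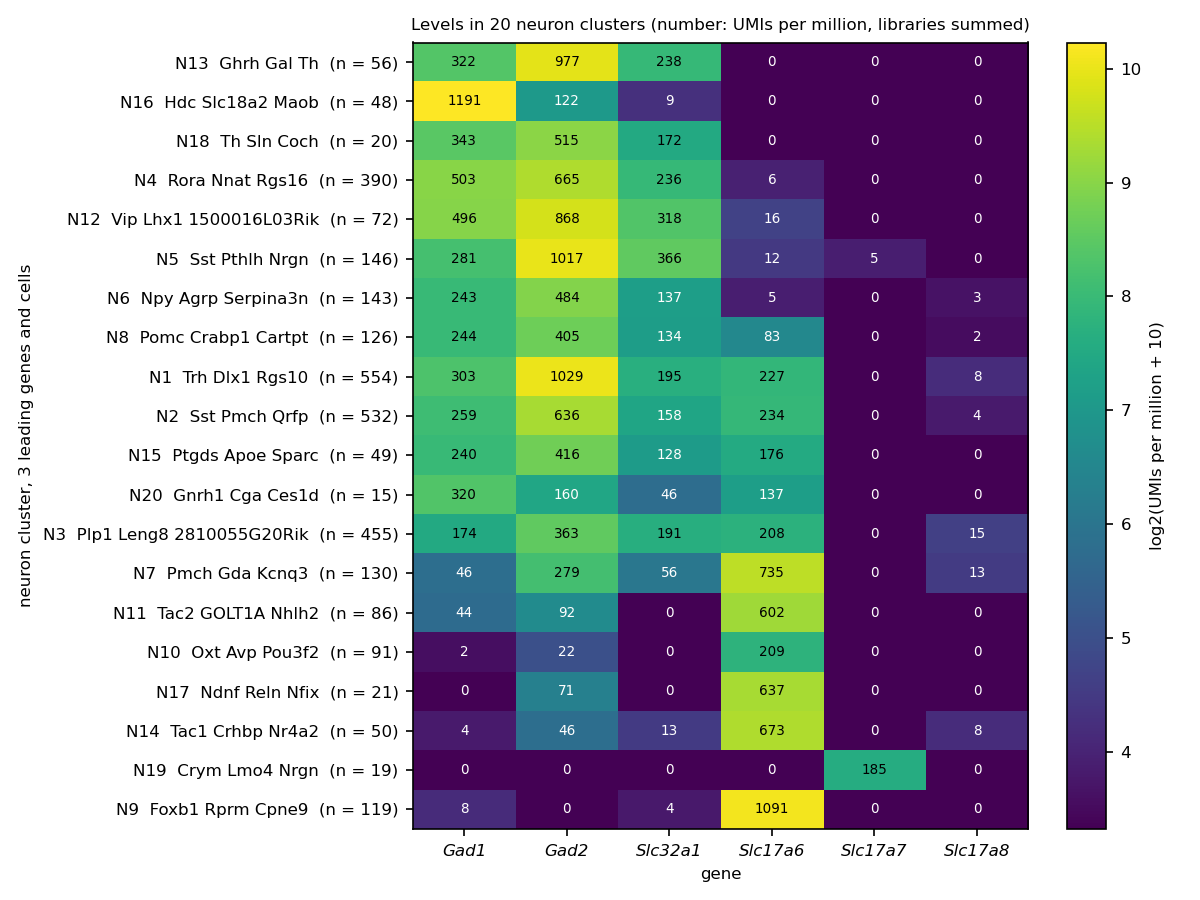
Pooled level of each gene in each of the 20 neuron clusters, as log2(CPM + 10), with clusters labelled by number and leading genes. The 3 GABA genes are high in the same clusters, N9 has Slc17a6 at 1091 CPM and almost none of the GABA genes, and N16 has Gad1 without comparable Gad2 or Slc32a1.

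The histamine neurons were set apart by the make-up of their GABA program. In N16, 48 neurons led by Hdc, the enzyme of histamine synthesis, Gad1 was at 1191 CPM, the highest of any neuron cluster, against 122 CPM for Gad2 and 9.38 CPM for Slc32a1. Gad1 in this cluster was at 1393, 1423 and 1466 CPM in KO1 to KO3, against 913, 1596 and 1000 CPM in WT1 to WT3. The groups overlapped, and the KO2 and KO3 levels came from 3 and 2 neurons. Each of these 6 levels was above the highest library of N4, at 739 CPM, and that of N12, at 884 CPM. In N20 the KO3 level, from 2 neurons, was 1015 CPM, above the WT1 and WT3 levels of N16. Gad1 made 90.1% of the 282 GABA UMIs of N16, Gad2 9.22% and Slc32a1 0.709%. In the other clusters with at least 30 GABA UMIs Gad1 made 12.1% to 35.8%, and over all neurons Gad1 made 26.5% and Slc32a1 15.2%. Counted by peptide and not by cluster, the 27 neurons with at least 5 Hdc UMIs held 235 UMIs of Gad1, 26 of Gad2 and 2 of Slc32a1, a Gad1 share of 89.4% (exact binomial 95% interval 85.0% to 92.8%). The 26 Gad2 UMIs were 0, 0 and 0 in KO1 to KO3, against 11, 13 and 2 in WT1 to WT3. Neurons with at least 5 Hdc UMIs numbered 8, 2 and 1 in KO1 to KO3 and 7, 4 and 5 in WT1 to WT3. In N16 as a whole only 6 neurons had a Gad2 UMI, 4 in WT1, 1 in WT2 and 1 in WT3, so the 13 UMIs of WT2 came from 1 neuron. Among the genes of N16 with at least 50 CPM, 11.9% had groups that did not overlap.

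**Figure D3:**
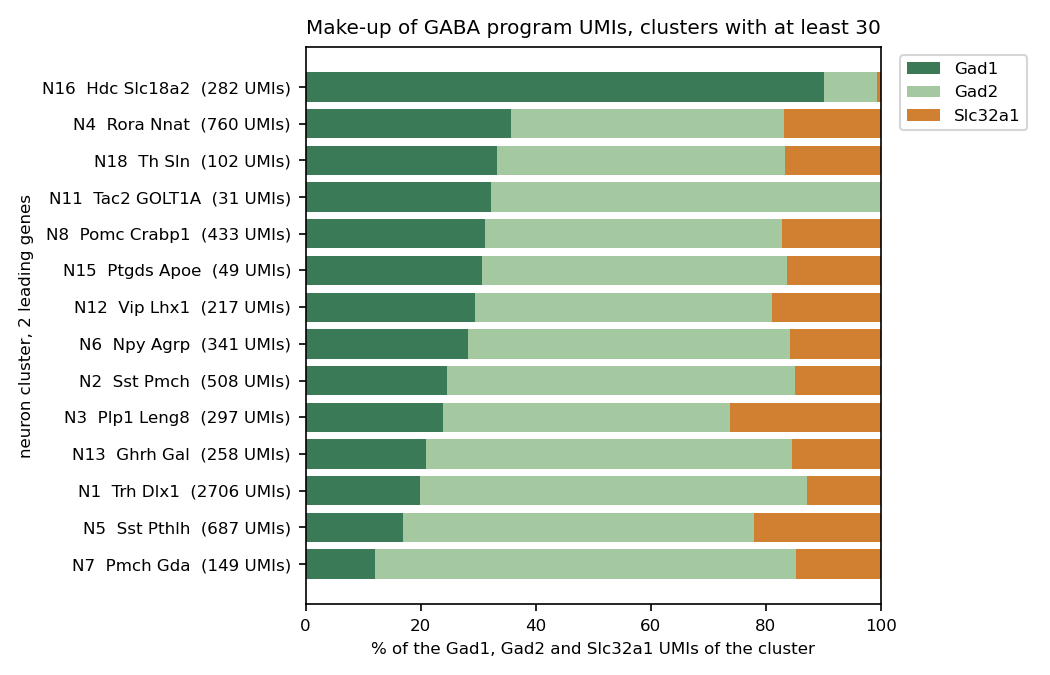
Share of GABA UMIs (%) that were Gad1, Gad2 or Slc32a1 in each neuron cluster with at least 30 such UMIs, pooled over the 6 libraries. Gad1 takes 90.1% in N16, led by Hdc, and at most 35.8% in the other clusters.

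Pomc neurons, the source of melanocortin peptides, held decarboxylase UMIs and no UMI of the vesicular transporter. The 51 neurons with at least 5 Pomc UMIs had 34 UMIs of Gad1, 97 of Gad2 and 0 of Slc32a1. A count of 0 of 131 GABA UMIs allows an Slc32a1 share of up to 2.78% (exact binomial 95% interval), and by level it allows up to 12.6 CPM, from 3 UMIs. At least 1 Gad1 or Gad2 UMI was found in 33 of these 51 neurons and in each of the 6 libraries. Slc32a1 made 14.1% of GABA UMIs in Agrp neurons, 13.6% in Npy, 17.1% in Avp, 19.4% in Sst, 14.9% in Gal, 13.0% in Vip and 16.9% in Ghrh neurons. It made 4.62% in Trh neurons, 3 of 65 UMIs and all in 1 neuron.

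The cluster led by Pomc, N8, was not uniform. Its 41 neurons with at least 5 Pomc UMIs held 34 UMIs of Gad1, 94 of Gad2, 0 of Slc32a1 and 32 of Slc17a6. Its other 85 neurons held 101 of Gad1, 130 of Gad2, 74 of Slc32a1 and 14 of Slc17a6, so that Slc32a1 made 24.3% of their GABA UMIs. In N11 the 62 neurons with at least 5 UMIs of Tac2, the neurokinin B precursor, held 9 UMIs of Gad1, 15 of Gad2, 0 of Slc32a1 and 116 of Slc17a6. The other 24 neurons of N11 held 1 UMI of Gad1, 6 of Gad2, 0 of Slc32a1 and 22 of Slc17a6, so no Slc32a1 UMI was seen in N11 as a whole. Over all clusters, the 31 neurons with at least 5 UMIs of Pdyn, the dynorphin precursor, held 11 UMIs of Gad1, 26 of Gad2 and 0 of Slc32a1, a count of 0 of 37 that allows up to 9.49%. These splits were chosen after the values were seen.

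To count neurons by program, each neuron with at least 1000 UMIs (1972 neurons) was thinned to 1000 UMIs, and a program was called from at least 1 UMI of its genes. By this measure 54.6%, 49.4% and 40.6% of neurons had the GABA program alone in KO1 to KO3, against 40.6%, 53.6% and 47.3% in WT1 to WT3. The glutamate program alone was found in 13.6%, 13.9% and 15.4% in KO1 to KO3, against 16.5%, 12.0% and 13.8% in WT1 to WT3. Both programs together were found in 1.53%, 1.81% and 1.37% in KO1 to KO3, against 2.26%, 1.50% and 1.25% in WT1 to WT3. The GABA program was thus seen in more neurons than the glutamate program in every library, and for each share the groups overlapped. These shares are not population sizes, since a program can be missed at this depth. At 1000 UMIs the GABA program was seen in 61.7% of neurons of GABAergic clusters. The glutamate program was seen in 44.2% of neurons of glutamatergic clusters. Both kinds of cluster were called from these same genes, with unlike cut-offs. The 2 rates therefore do not measure how well each program was seen. Neither program was seen in 30.3%, 34.9% and 42.7% in KO1 to KO3, against 40.7%, 32.9% and 37.7% in WT1 to WT3.

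Mean shares were 48.2% ± 7.08 in KO and 47.2% ± 6.53 in WT for GABA alone (SD, n = 3 libraries each; two-sided exact permutation p = 0.7). They were 14.3% ± 0.98 in KO and 14.1% ± 2.25 in WT for glutamate alone (exact permutation p = 0.9), and 1.57% ± 0.218 in KO and 1.67% ± 0.526 in WT for both programs (exact permutation p = 0.9). The share with neither was 36.0% ± 6.24 in KO and 37.1% ± 3.94 in WT (exact permutation p = 0.8). The p adjusted over the 4 shares was 0.9 for each of these exact tests, and 3 against 3 libraries cannot go below 0.1. Without thinning, over all neurons, GABA alone was 49.9% ± 7.06 in KO and 48.9% ± 6.85 in WT, glutamate alone 17.2% ± 1.06 in KO and 17.02% ± 1.34 in WT, and both 4.25% ± 0.134 in KO and 4.68% ± 1.05 in WT.

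**Figure D4:**
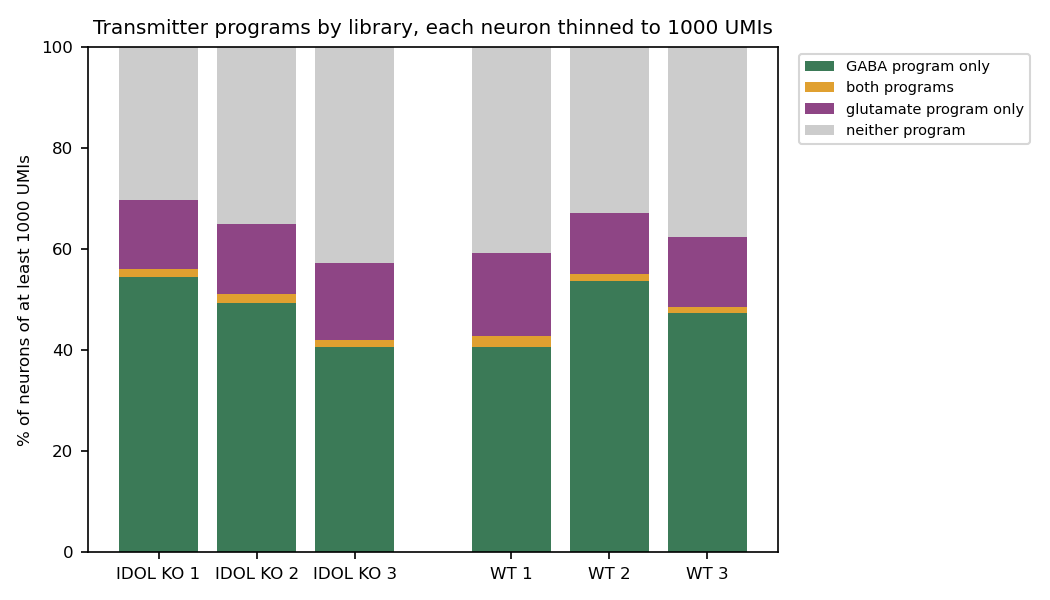
Share of neurons (%) with the GABA program only, the glutamate program only, both or neither in each library, thinned to 1000 UMIs, with KO1 to KO3 left of WT1 to WT3. GABA alone ranges from 40.6% to 54.6% and both programs from 1.25% to 2.26%.

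Cells that should lack these genes gave a background for the shares, and the source of their UMIs was not tested. Among oligodendrocytes, with a median of 1078 UMIs, 2.48% had a GABA program UMI, 0.776% a glutamate program UMI and 0% both. In microglia (median 607 UMIs) the shares were 2.31% for GABA and 0.514% for glutamate, and in endothelial cells (median 670.5 UMIs) they were 1.89% and 0.630%. Thinned to 1000 UMIs, the GABA share was 2.43% in oligodendrocytes, 4.45% in astrocytes, 5.31% in microglia (49 cells) and 1.73% in endothelial cells. The glutamate share was 0.513% in oligodendrocytes, 1.30% in astrocytes, 0% in microglia and 0.709% in endothelial cells. The neuronal shares of single programs lay far above these levels. Both programs at full depth were seen in 1 astrocyte and in no oligodendrocyte, microglial or endothelial cell. The part of free RNA and of doublets in the neuronal share with both programs was not tested.

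Seeing both programs depended on depth. Among 1150 neurons with under 1000 UMIs 1.48% had both, among 793 with 1000 to 2000 UMIs 2.02%, among 698 with 2000 to 4000 UMIs 6.88%, and among 481 with at least 4000 UMIs 13.3%. The share with neither was 52.3%, 26.7%, 11.03% and 5.20% in the same 4 depth ranges, so most neurons in which no program was seen were shallow. A neuron with a glutamate UMI was less likely to have a GABA UMI. At 1000 UMIs the GABA share was 10.1%, 11.5% and 8.20% of neurons with the glutamate program in KO1 to KO3, and 12.1%, 11.1% and 8.30% in WT1 to WT3. In neurons without it the GABA share was 64.3%, 58.6% and 48.8% in KO1 to KO3, and 49.9%, 62.0% and 55.7% in WT1 to WT3. The mean difference was -46.3 ± 6.15 percentage points (SD, n = 6), lower in 6 of 6 libraries (two-sided exact sign-flip permutation p = 0.031, the smallest 6 libraries allow), a test added after the values were seen.

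The vesicular transporters of the 2 programs were rarely seen in 1 neuron. Of 1084 neurons of at least 1000 UMIs with either an Slc32a1 UMI or a UMI of a glutamate transporter at full depth, 20 had both (1.85%, exact binomial 95% interval 1.13% to 2.84%), from 559 with Slc32a1 and 545 with a glutamate transporter. Among the 1442 such neurons of GABAergic clusters 77.8% had at least 1 GABA gene. Of these 35.2% had 1 of the 3 genes, 40.2% had 2 and 24.6% had all 3. Of the neurons with Slc32a1 80.2% also had Gad2, 63.1% Gad1 and 2.08% Slc17a6.

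Peptide types differed in the program they carried. A type was the neurons with at least 5 UMIs of the peptide or amine gene, and 6 types had at least 5 neurons of 1000 UMIs in every library and were set against the other neurons of the same library. The glutamate program was less frequent in Npy neurons, 2.14% ± 2.54 against 16.5% ± 1.98 in other neurons (SD, n = 6 libraries), a difference of -14.3 ± 3.36 percentage points. It was also less frequent in Sst, Gal and Avp neurons, with differences of -10.9 ± 7.05 points for Sst, -9.88 ± 0.927 for Gal and -9.64 ± 4.09 for Avp. It was more frequent in Tac1 neurons, which make substance P, with 30.9% ± 11.3 against 15.04% in other neurons, a difference of 15.9 ± 12.5 points. Each of these 5 differences had its direction in 6 of 6 libraries, with an adjusted p of 0.0375 (two-sided exact sign-flip permutation, adjusted over the 6 types). Cartpt neurons had 21.3% ± 7.06 against 15.1% in other neurons, higher in 5 of 6 libraries, which did not pass (exact sign-flip adjusted p = 0.0938). With a minimum of 3 peptide UMIs none of 9 types passed, each of these 5 having an exact sign-flip adjusted p of 0.05625.

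For the GABA program no type passed the adjusted threshold. Npy neurons had 59.97% ± 3.61 against 48.8% in other neurons, and Gal neurons 63.6% ± 10.98 against 48.1%, each higher in 6 of 6 libraries. The Npy difference turned to -2.43 percentage points where 2 UMIs were needed for a program. Tac1 neurons had 29.95% ± 7.26 against 50.2% in other neurons, lower in 6 of 6 libraries. The exact sign-flip adjusted p was 0.0625 for each of these 3 types, 0.141 for Cartpt, 0.225 for Avp and 0.875 for Sst. Before adjustment these 3 types had the smallest p that 6 libraries allow, the same as the glutamate differences that passed. Their adjusted p was higher only because fewer types reached that smallest p for GABA. A larger difference in these 3 types could not have lowered it, so the threshold does not separate the 2 programs here. Between genotypes the GABA share was 62.1% ± 3.47 in KO and 57.9% ± 2.72 in WT in Npy neurons (SD, n = 3 each; exact permutation p = 0.2), and 46.4% ± 13.8 in KO and 38.9% ± 10.9 in WT in Avp neurons (exact permutation p = 0.5). The glutamate share of Tac1 neurons was 27.4% ± 9.65 in KO and 34.5% ± 13.8 in WT (exact permutation p = 0.5). For the 6 types and both programs the unadjusted exact permutation p lay between 0.2 and 1.

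The other types had too few neurons per library for a test and are given pooled at 1000 UMIs. Vip neurons (41) had the highest GABA share of the types with at least 15 neurons, 86.03%, with a glutamate share of 0.879%, and Ghrh neurons (20), which drive growth hormone release, had 69.0% and 1.07%. Hdc neurons (27) had a GABA share of 70.7% and a glutamate share of 0%. Agrp neurons (87) had a GABA share of 58.1% and a glutamate share of 0.835%, close to the Npy neurons with which they share cells. At the other end Oxt neurons (42) had a GABA share of 5.26% and a glutamate share of 17.8%, and Adcyap1 neurons (13) had 5.41% and 56.7%. Mixed types were Tac2 (82), with a GABA share of 29.9% and a glutamate share of 31.6%, and Trh (30), with 23.7% and 31.1%. Pomc neurons (43) had a GABA share of 38.4%, a glutamate share of 13.2% and both in 3.98%.

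**Figure D5:**
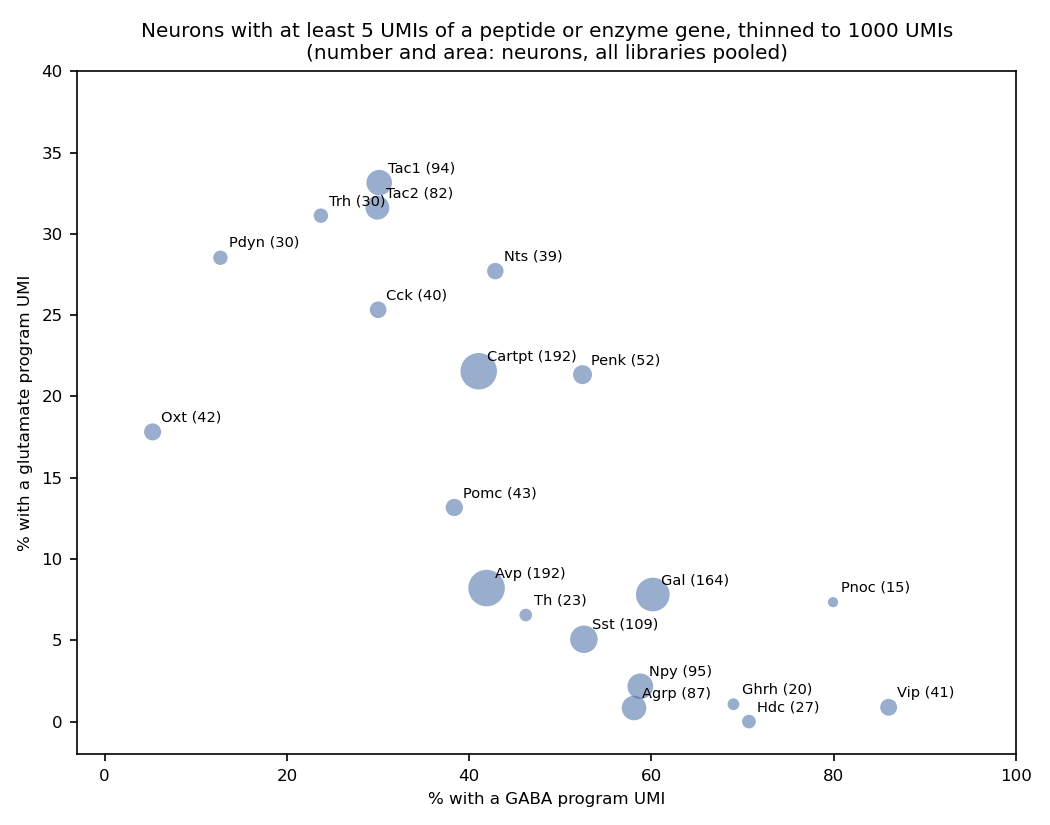
GABA share (x axis, %) against glutamate share (y axis, %) of each peptide or amine type with at least 15 neurons, thinned to 1000 UMIs and pooled over libraries, with point area by number of neurons. Vip, Ghrh and Hdc neurons lie at high GABA and low glutamate shares, Oxt neurons are low for GABA, and Tac1, Tac2 and Trh neurons lie between.

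Some peptides that looked mixed were divided between clusters, and others stayed mixed within 1 cluster. Avp neurons of N4 had a GABA share of 67.5% and a glutamate share of 0.867% (110 neurons at 1000 UMIs), whereas those of N10, the Oxt and Avp cluster, had 0.563% and 20.4% (70 neurons). Tac1 neurons had a GABA share of 56.9% in N1 and 4.87% in N14, with glutamate shares of 30.9% in N1 and 49.3% in N14. Cartpt neurons had a GABA share of 74.3% in N13 and 0.732% in N9, and a glutamate share of 0% in N13 and 66.9% in N9. Tac2 neurons of N1 had 80.4% for GABA and 2.33% for glutamate, whereas those of N11 had 10.7% and 42.1%. Gal neurons had a GABA share of 75.9% in N13 and 8.56% in N11. Trh neurons, in contrast, were nearly all in N1 (27 of 30), with a GABA share of 22.8% and a glutamate share of 32.5% there, and 6 of the 27 had both at full depth. Penk neurons of N1 (25) had 58.4% and 24.6%, with both in 6, and Cartpt neurons of N8 (41) had 46.4% and 11.5%, with both in 7. N1 as a whole was mixed, with Slc17a6 at 227 CPM. At full depth 70.9% of its 554 neurons had a GABA UMI, 26.9% a glutamate UMI and 7.76% both. Whether N1 joins several kinds of neuron was not tested. Th neurons, which carry the rate-limiting enzyme of dopamine synthesis, had a GABA share of 71.8% in N13 and 66.8% in N18 and of 0% in N10. These splits follow clusters built from the same cells and are a description with no test.

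Outside neurons a pair of signals exceeded the background of the other glia. Gad1 was found in oligodendrocyte precursors, 43 UMIs in 41 of 589 cells (6.96%, exact binomial 95% interval 5.04% to 9.33%), or 82.5 CPM, beside 8 UMIs of Gad2 and 1 of Slc32a1 in the same cells. The cells with Gad1 were 3, 13 and 9 of 97, 139 and 134 precursors in KO1 to KO3, against 8, 4 and 4 of 89, 57 and 73 in WT1 to WT3. By level Gad1 was at 46.9, 131 and 70.5 CPM in KO1 to KO3, against 104, 78.8 and 56.1 CPM in WT1 to WT3, and the groups overlapped. The summed level of neuron markers was 2597 CPM in precursors with Gad1 and 3049 CPM in those without, and that of precursor markers was 10410 CPM with Gad1 and 8992 CPM without.

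Slc17a8 was found in tanycytes, 55 UMIs in 23 of 429 cells (5.36%, exact binomial 95% interval 3.43% to 7.94%), or 47.4 CPM. The UMIs were 1, 3 and 6 in KO1 to KO3, against 35, 5 and 5 in WT1 to WT3. By level they came to 4.96, 13.4 and 63.2 CPM in KO1 to KO3, against 80.1, 36.8 and 75.2 CPM in WT1 to WT3, and the groups overlapped (means 27.2 ± 31.5 in KO and 64.0 ± 23.7 in WT, two-sided exact permutation p = 0.2). WT1 held most of the UMIs, and a single cell held up to 14. A subset of 53 cells led by Rarres2 and Ccdc153, which are ependymal genes, held 38 UMIs in 8 cells, of which 32 UMIs were from WT1. Outside WT1 this subset held 6 UMIs, against 10 in the largest subset, and by level over all libraries they were at 66.1 and 54.4 CPM. Pooled, cells with Slc17a8 had summed ependymal markers at 4424 CPM, against 1788 CPM in tanycytes without it, and tanycyte markers at 2264 CPM, against 5306 CPM. Deep cells weigh most in these pooled levels. The part of ependymal cells in this signal was not tested.

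Genes with the most similar pattern were found over the 14 neuron clusters of at least 50 cells, by Pearson's correlation of log2(CPM + 10) among 7070 genes. The 3 GABA genes correlated with each other at 0.917 to 0.926 and with Slc17a6 at -0.742 to -0.687, as a description of clusters that share libraries and depth. Nearest to Gad1 were Gm14204 (0.933), Nrxn3 (0.917), Por (0.916), Arhgap6 (0.899) and Rps6ka6 (0.890). Nearest to Gad2 were Nrxn3 (0.927), Por (0.888), Gm14204 (0.855), Arhgap6 (0.845) and Six3 (0.835). Nearest to Slc32a1 were Por (0.934), Nrxn3 (0.933), Arhgap6 (0.925), Gm14204 (0.921) and Six3 (0.877), a list that shares 4 genes with that of Gad1. Nearest to Slc17a6 were Cdh8 (0.886), Tmem163 (0.872), Ugcg (0.842), Lhx5 (0.841) and Ept1 (0.815). Slc17a7 and Slc17a8 had too few UMIs in these clusters for such a list.

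The genes around the pathway, among them those of glutamine and glutamate metabolism, GABA breakdown, plasma membrane transport and the Dlx factors of GABA neuron development, were a list of 32, of which 31 were in the table. In neurons 23 were tested and edgeR and DESeq2 called 0, with 13 higher and 10 lower in KO and a median log2 fold change of 0.03, against 0.00208 over all genes. An unadjusted p under 0.05 was found for 3 of 23 by edgeR and for 3 by DESeq2, against 4.40% of all genes by edgeR.

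The 3 with the smallest p are given as values, since none passed. Dlx6os1, a noncoding RNA of the Dlx5 and Dlx6 locus, was at 18.96, 27.1 and 12.8 CPM in KO1 to KO3, against 10.96, 10.1 and 7.48 CPM in WT1 to WT3, with an edgeR log2 fold change of 1.01 ± 0.36 (adjusted p = 0.987). Slc18a2, the vesicular monoamine transporter, was at 121, 68.0 and 71.6 CPM in KO1 to KO3, against 129, 179 and 109 CPM in WT1 to WT3, with an edgeR log2 fold change of -0.64 ± 0.23 (adjusted p = 0.987). The groups did not overlap for Dlx6os1 and overlapped for Slc18a2. Gls2, a glutaminase that makes glutamate from glutamine, was at 19.7, 21.3 and 37.4 CPM in KO1 to KO3, against 15.3, 15.9 and 8.98 CPM in WT1 to WT3, with an edgeR log2 fold change of 0.88 ± 0.32 (adjusted p = 0.987). In all cells 27 of the list were tested and 0 called, with 0 under an unadjusted p of 0.05 by edgeR and DESeq2, against 2.01% of all genes by edgeR. In GABAergic clusters 23 were tested and 0 called, with 4 under an unadjusted p of 0.05 by edgeR, against 4.62% of all genes, and 2 by DESeq2. In glutamatergic clusters 0 of 12 were called by edgeR or DESeq2, with 0 under an unadjusted p of 0.05, against 5.76% of all genes by edgeR.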

How the data were processed

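The authors deposited 1 gene by barcode table of raw counts of unique molecular identifiers (UMIs), not normalized, for all 6 libraries. Per the submitters' processing notes, bcl2fastq, STAR 2.5.0c and the builds mm10 and GRCm38 were used. The counting program, annotation, strand and barcode rule are not given in the sources used here.

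From these counts, barcodes with at least 300 genes and at most 20% mitochondrial UMIs were kept, and Scrublet (scanpy 1.11.5), run in each library, marked 120 doublets (1.27%), which were removed. Cells and then neurons were clustered (Leiden, leidenalg 0.10.2) without the 6 genes. Clusters were named from marker lists by a scoring rule set after seeing the cells, so every class stands for cells like that type. Raw counts were summed per library and tested with edgeR 4.0.16 (filterByExpr, TMM, quasi-likelihood, Benjamini-Hochberg over all genes tested, threshold 0.05), with DESeq2 1.42.0 as an alternative. The edgeR fit, but not the DESeq2 fit, had first been tested on simulated data. CPM is a count divided by all UMIs of the cells summed, times 1000000, without TMM. Shares at 1000 UMIs are exact expectations under random thinning. Library shares were compared by exact permutation, and peptide types by exact sign-flip tests within libraries.

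Neurons under 1000 UMIs were left out of thinned shares: 140, 262 and 215 in KO1 to KO3 and 280, 119 and 134 in WT1 to WT3. Intervals and floors (3 UMIs) cover counting error only. The text names all 6 members, the 3 genes of the pathway list with the smallest p in neurons, and for each member the 5 genes most correlated with it among those with at least 50 CPM in a cluster. Members and lists were chosen with earlier results of these data known. Promoters are from RefSeq and coordinates from GENCODE M21, and 93.9% of symbols matched. The sources used here do not say whether equal replicate numbers share a day, litter or animal. Deviations of same-numbered libraries from their group means correlated at 0.294, -0.163 and 0.292 over all cells. In neurons they correlated at -0.0733, -0.0154 and 0.184. Among WT libraries, KO1 deviated most like WT1 over all cells and like WT2 in neurons. KO2 deviated most like WT1 and KO3 most like WT3 in both. These values do not settle whether the numbers pair the libraries. Alternatives covered scaling, filters, doublets, clustering, depth, program and peptide thresholds and each library left out.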

Additional observations from a re-analysis of the deposited data

How the results depend on the processing

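No setting called a member in any of the 4 populations. Values near 0 changed sign. For log2 fold changes, KO over WT, leaving out a library gave -0.092 to 0.37 for Gad1 and -0.24 to 0.37 for Gad2 in all cells, and -0.34 to 0.17 for Slc17a6. For Slc32a1 the ranges were 0.061 (without KO1) to 0.31 in all cells, 0.014 (without WT1) to 0.50 (without WT3) in neurons, and 0.095 to 0.41 in GABAergic clusters. In neurons the ranges were -0.026 to 0.33 for Gad1, -0.12 to 0.30 for Gad2 and -0.096 to 0.093 for Slc17a6. In GABAergic clusters they were -0.047 to 0.25 for Gad1, -0.12 to 0.25 for Gad2 and -0.17 to 0.27 for Slc17a6, and in glutamatergic clusters -0.025 to 0.52 for Gad2 and -0.17 to 0.17 for Slc17a6. Slc17a6 in neurons was 0.013 with no filter on low counts and 0.0018 with doublets kept, and in glutamatergic clusters -0.0496 with cells of at least 500 genes and -0.099 with the members kept in the clustering. In GABAergic clusters Slc17a6, 0.09 as reported, was 0.53 with cells of at least 500 genes, 0.57 with the members kept in the clustering and 0.000255 with doublets kept. With the replicate number as a block, Gad2 in all cells was -0.024 and Slc17a6 in neurons 0.0038, and 0 members were called in each population. In all cells the SE with the block was 0.14 for Gad1, 0.25 for Gad2, 0.19 for Slc32a1, 0.14 for Slc17a6 and 0.54 for Slc17a8. Without it the SE was 0.30, 0.31, 0.19, 0.25 and 0.55. The sources used here do not say what equal numbers share, so the block is not read as a pairing.

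For the shares of neurons, KO minus WT in percentage points, leaving out a library gave -2.26 to 4.85 for GABA alone, -0.863 to 1.38 for glutamate alone, -0.307 to 0.198 for both and -4.48 to 1.69 for neither. Thinned to 500 UMIs both programs differed by 0.0272, and with 2 UMIs making a program glutamate alone differed by -0.0648. The count of peptide types with a differing glutamate share, 5 of 6, was 0 of 9 with 3 peptide UMIs and 3 of 4 with 10. With 3 peptide UMIs the differences from other neurons were -12.5 points for Npy, -9.54 for Avp, -9.86 for Sst, 17.9 for Tac1 and -6.61 for Gal, and more types entered the adjustment. The GABA difference was -0.787 for Sst with 10 peptide UMIs and -2.43 for Npy with 2 UMIs making a program. Leaving out N15, N17, N19 and N20, chosen after seeing the data, gave GABA alone in 49.2% in KO and 47.5% in WT (exact permutation p = 0.8). The cause of these changes was not tested. Few UMIs limit what can be said of Slc17a7 and Slc17a8 in neurons, and whether depth is the reason was not tested. The share with neither program fell with depth. Small numbers of neurons limit the rarer types.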

Other observations

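Gm14204, a noncoding gene at chr2:158595472-158610723 on the minus strand, starts 44 bases from the start of Slc32a1 on the opposite strand, and it was among the 5 genes most like each of Gad1, Gad2 and Slc32a1. It had 177 UMIs in 161 neurons, or 25.5 CPM, and 2 UMIs in all other cells. Of these 161 neurons 84 also had Slc32a1, a gene found in 685 neurons. Gm14204 was at 93.0 CPM in the cluster led by Vip and Lhx1 (N12) and at 64.7 CPM in the cluster led by Rora and Nnat (N4). It had 0 UMIs in the Slc17a6 clusters N9, N11 and N14, in the Oxt and Avp cluster N10 and in the Hdc cluster N16, where Slc32a1 was at 0 to 12.5 CPM. By library it was at 29.6, 25.4 and 32.0 CPM in KO1 to KO3, against 24.3, 18.8 and 19.5 CPM in WT1 to WT3. The groups did not overlap, which held for 9.73% of all genes in neurons, and the edgeR log2 fold change, KO over WT, of 0.43 ± 0.26 did not pass (adjusted p = 0.987). The strand counted is not given in the sources used here, and the 2 genes do not overlap in GENCODE. The pair was singled out after its values were seen.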
